A study of Homo sapiens with 4 samples.

Results

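Chromatin accessibility was examined at the promoters of the clustered protocadherins, a family of cell-surface adhesion genes, in HEK293T cells with and without MORC2. Members were the rows of a promoter count table whose gene symbol names an alpha, beta or gamma clustered protocadherin, which gave 53 of 28775 rows, comprising 15 alpha, 16 beta and 22 gamma promoters. Membership depended on the symbol alone, but the family was selected on earlier values of the same MORC2 knockout (KO) against wild-type (WT) contrast. All differences between KO and WT at these promoters are therefore descriptions. In ATAC-seq a transposase inserts sequencing adapters into DNA that is not covered by nucleosomes, and each value is the number of sequenced fragments assigned to a promoter.

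There were 2 WT libraries and 2 MORC2 KO libraries of HEK293T, an aneuploid human embryonic kidney line. MORC2 is an ATPase that compacts DNA in vitro and works with the silencing complex HUSH. KO replicate 1 was made with guide RNA 1 and KO replicate 2 with guide RNA 2. Each was a bulk pool of edited cells and not a clone, so that guide and replicate cannot be told apart. The WT cells carried no guide. The KO cells were electroporated with Cas9 protein and guide RNA and then passaged, and no mock electroporation of the WT cells is described. This handling and the loss of MORC2 cannot be told apart here. The WT replicates are described as independent of each other, as are the KO lines.

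The clustered protocadherins lie in tandem on chromosome 5 in the order alpha, beta, gamma. Each alpha and gamma gene has its own promoter and first exon, which is spliced to exons shared by the whole cluster, whereas each beta gene is a single coding exon. In neurons, most of these promoters are chosen at random, a few per cell, and the combination of proteins on the surface lets a neuron tell its own processes from those of other cells. The C-type genes (PCDHAC1, PCDHAC2, PCDHGC3, PCDHGC4 and PCDHGC5) are less subject to this choice. CTCF and cohesin loop chosen promoters to distant enhancers, and most of the promoters share a conserved sequence element with the core letters CGCT. HUSH is known to restrain clustered protocadherin genes in the mouse brain.

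Promoter sequences were available from RefSeq (GRCh38.p14) for 47 of the 53 members, each spanning 250 bases before to 50 bases after the gene start. PCDHA3, PCDHA13, PCDHB6, PCDHB11, PCDHGA12 and PCDHGC5 were not matched. The 150 bases before the gene start are given 5′ to 3′ for the promoter with the highest and that with the lowest WT accessibility among the matched promoters of each cluster, to set the most and the least accessible side by side. PCDHGA1 was added after its values were seen, because it was the only member called different between KO and WT. Capitals mark CGCT on either strand, so that AGCG is also in capitals.
PCDHAC1, alpha, highest, chr5:140926149-140926298, plus strand: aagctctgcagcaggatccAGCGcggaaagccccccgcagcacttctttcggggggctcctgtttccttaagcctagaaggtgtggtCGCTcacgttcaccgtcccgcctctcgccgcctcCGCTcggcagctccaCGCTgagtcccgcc
PCDHA6, alpha, lowest, chr5:140827810-140827959, plus strand: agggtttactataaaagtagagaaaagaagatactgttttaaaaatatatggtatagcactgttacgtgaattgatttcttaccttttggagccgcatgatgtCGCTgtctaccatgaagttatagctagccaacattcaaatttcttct
PCDHB14, beta, highest, chr5:141223193-141223342, plus strand: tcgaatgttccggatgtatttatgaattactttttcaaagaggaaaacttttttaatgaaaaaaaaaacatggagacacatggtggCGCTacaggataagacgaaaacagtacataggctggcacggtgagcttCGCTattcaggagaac
PCDHB9, beta, lowest, chr5:141187011-141187160, plus strand: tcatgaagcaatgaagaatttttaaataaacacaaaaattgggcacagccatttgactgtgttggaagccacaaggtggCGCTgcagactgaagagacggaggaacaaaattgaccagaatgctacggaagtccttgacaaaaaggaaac
PCDHGC4, gamma, highest, chr5:141484880-141485029, plus strand: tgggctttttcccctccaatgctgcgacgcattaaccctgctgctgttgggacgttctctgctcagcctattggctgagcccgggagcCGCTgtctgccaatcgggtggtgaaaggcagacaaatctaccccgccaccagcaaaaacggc
PCDHGA3, gamma, lowest, chr5:141343679-141343828, plus strand: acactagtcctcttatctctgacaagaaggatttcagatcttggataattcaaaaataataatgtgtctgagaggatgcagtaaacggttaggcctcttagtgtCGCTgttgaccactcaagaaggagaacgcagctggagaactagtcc
PCDHGA1, gamma, called, chr5:141330364-141330513, plus strand: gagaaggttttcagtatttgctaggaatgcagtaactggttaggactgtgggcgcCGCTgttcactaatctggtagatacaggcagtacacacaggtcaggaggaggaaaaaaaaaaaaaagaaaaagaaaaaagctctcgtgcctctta

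Each of the 7 promoters shown held CGCT at least once in this stretch, and the PCDHAC1 stretch held it 4 times. Over the whole window and both strands, CGCT was found in 46 of 47 matched members (97.9%), all but PCDHA9, against 77.2% of the 19554 promoters of rows in the count table. Words of 8 letters were then searched for in these same sequences, and the most frequent was kept. Its high share among the members therefore follows in part from the choice. The 8-letter word GTGGCGCT, the one found in the most members, was present in 13 of 14 matched beta promoters, all but PCDHB1, and in no matched alpha or gamma promoter, against 1.40% of all promoters. Measured from the end of the word, it lay between 34 and 75 bases before the gene start in most beta promoters, and 7 bases before at PCDHB5. At PCDHB8 the word spanned the gene start.

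After these values were seen, the most frequent word of the other clusters was taken in the same way. ATGTCGCT was present in 9 of 13 matched alpha promoters, 34 to 77 bases before the gene start, and in 0.276% of all promoters. GCCGCTGT was present in 11 of 20 matched gamma promoters, 34 to 89 bases before the gene start, and in 1.80% of all promoters. Neither word was found in a member of another cluster. All 3 words contain CGCT and so overlap the core, and all were found on the plus strand, which is the strand of the genes. TATAA was found in 17 of the 47 matched members (36.2%) against 17.9% of all promoters, and CCCTC, on either strand, in 12 (25.5%) against 74.6%. These are matches of letters and not measured binding sites. The shares were not corrected for base composition: the median GC content was 39.7% over the matched members and 61.3% over all promoters.

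The promoter table held 9435801 to 15152636 fragments per library, of which mitochondrial rows took 20.6% to 35.1%, with the lowest mitochondrial share and the greatest depth in KO replicate 2. The median nuclear promoter held 131 to 249 fragments. The 53 members together held 1923 and 1798 fragments in WT replicates 1 and 2, and 2128 and 3534 in KO replicates 1 and 2. Single members held 12 to 451 fragments per library, so that most of them were measured with few fragments. Levels are given as CPM, the count of a promoter set against the count of the whole library after TMM scaling, which corrects for depth and composition of the library. Levels of different promoters are compared as if all windows had one length. Promoters are 2 kb windows centred on gene starts elsewhere in the study, but whether this table was made with them is not stated.

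In WT cells the clustered protocadherin promoters were among the less accessible promoters of the genome. Their mean WT level ranged from 1.56 to 21.3 CPM, against a median of 14.6 CPM over 28738 nuclear promoters. PCDHGC4 was the only member above that median. Promoters of genes that mark other cell types and that HEK293T should lack spanned 1.71 CPM (PTPRC, a blood cell phosphatase) to 6.82 CPM (MYH7, a muscle myosin), with a median of 4.39 CPM over 8 promoters. At or below that median lay 43 of the 53 members, and 4 members lay above the whole range: PCDHGC4, PCDHAC1, PCDHGC3 and PCDHGA11. All 6 promoters that mark HEK293T lay above it, from PAX2 at 7.16 CPM to VIM at 74.8 CPM. In a bulk library, fewer cells with an open promoter and a less open promoter in every cell cannot be told apart.

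**Figure D1:**
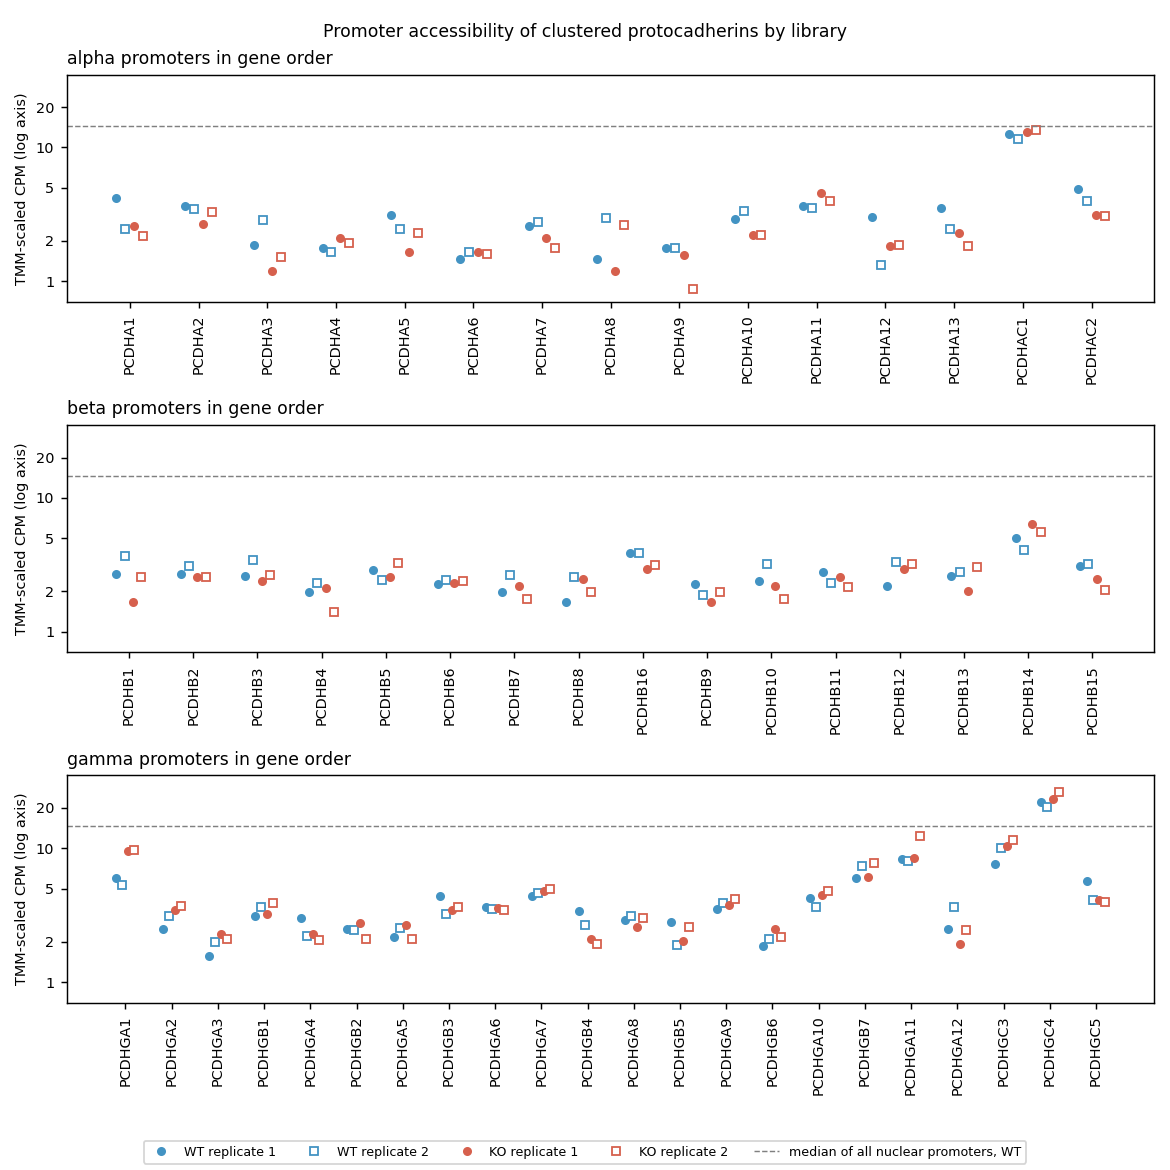
Accessibility of each of the 53 clustered protocadherin promoters in gene order, as TMM-scaled CPM on a log axis, with 1 point per library (WT blue, KO red) and the median of all nuclear promoters in WT (14.6 CPM) as a dashed line. Only PCDHGC4 lies above the line in WT, PCDHAC1 stands apart from the other alpha promoters, and the beta promoters lie in a narrow band.

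The alpha cluster consisted of 1 promoter near the genome-wide median and 14 well below it. PCDHAC1 (Gene ID 56135), the first of the C-type alpha genes, measured 12.7 and 11.6 CPM in WT replicates 1 and 2, and 12.9 and 13.5 CPM in KO replicates 1 and 2. It was the highest alpha promoter in each of the 4 libraries. It took 24.2% (95% Wilson interval 20.6 to 28.1) and 24.1% (20.3 to 28.3) of alpha fragments in the WT libraries, and 29.6% (25.7 to 33.9) and 30.3% (27.1 to 33.7) in the KO libraries. These intervals cover counting error within each library only, and not variation between libraries. The fragments carry no molecular identifiers. The WT and KO shares overlap in their intervals.

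In gene order, PCDHA1 to PCDHA13 had mean WT levels between 1.56 CPM at PCDHA6 and 3.59 CPM at PCDHA11, with no run of adjacent promoters standing out from the rest. PCDHA6 measured 1.45 and 1.66 CPM in WT replicates 1 and 2, and 1.65 and 1.58 CPM in KO replicates 1 and 2, so that its groups overlapped. PCDHA4, the next lowest, measured 1.77 and 1.66 CPM in WT, and 2.11 and 1.93 CPM in KO. Both KO values of PCDHA4 lay above both WT values, on 15 to 33 fragments per library.

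PCDHA11, the third highest alpha promoter, measured 3.64 and 3.54 CPM in WT and 4.59 and 3.99 CPM in KO. Its KO values lay above its WT values, with a log2 fold change of 0.24 (SE 0.235). PCDHA3 had the lowest fold change of the cluster, with 1.87 and 2.88 CPM in WT and 1.19 and 1.52 CPM in KO. Its log2 fold change was −0.76 (SE 0.329) on 13 to 26 fragments per library, and the groups did not overlap. PCDHA9 measured 1.77 CPM in both WT libraries, and 1.56 and 0.88 CPM in KO, a log2 fold change of −0.62 (SE 0.368).

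PCDHAC2, the last alpha gene and the second highest alpha promoter in WT, differed from PCDHAC1 in its KO values. It measured 4.88 and 3.99 CPM in WT replicates 1 and 2, and 3.12 and 3.05 CPM in KO replicates 1 and 2. Both KO libraries lay below both WT libraries, with a log2 fold change of −0.53 (SE 0.239). The log2 fold change of PCDHAC1 was 0.12 (SE 0.133). Neither passed an adjusted p of 0.05.

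The beta promoters were the most uniform, between 2.08 and 4.54 CPM in WT. In gene order, PCDHB1 measured 3.18 ± 0.675 CPM in WT (SD, n = 2), and PCDHB2 to PCDHB8 measured 2.10 to 3.01 CPM. PCDHB16, which lies between PCDHB8 and PCDHB9, measured 3.86 ± 0.024 CPM, and PCDHB9 to PCDHB13 measured 2.08 to 2.80 CPM. PCDHB14 was the highest at 4.54 ± 0.627 CPM, and PCDHB15, the last, measured 3.16 ± 0.068 CPM. PCDHB14 (Gene ID 56122) was the highest beta promoter in each of the 4 libraries, but no other beta promoter was among the top 3 in all of them.

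PCDHB14 measured 4.98 and 4.10 CPM in WT replicates 1 and 2, and 6.42 and 5.51 CPM in KO replicates 1 and 2. It was the only beta promoter with both KO values above both WT values, with a log2 fold change of 0.37 (SE 0.208). It held 11.6% (95% Wilson interval 8.86 to 15.0) and 8.67% (6.35 to 11.7) of beta fragments in WT, and 15.5% (12.4 to 19.1) and 13.3% (11.0 to 16.0) in KO. The intervals of WT replicate 2 and KO replicate 1 do not overlap, and those of the other pairs of a WT and a KO library do.

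PCDHB1 and PCDHB10 had the lowest beta log2 fold changes. PCDHB1, which also lacked the beta word, measured 2.70 and 3.65 CPM in WT, and 1.65 and 2.58 CPM in KO (log2 fold change −0.52, SE 0.278). PCDHB10 measured 2.39 and 3.21 CPM in WT, and 2.20 and 1.76 CPM in KO (log2 fold change −0.52, SE 0.295). Both KO values lay below both WT values at each of them. PCDHB8 and PCDHB9, the lowest of the WT levels, had log2 fold changes of 0.064 (SE 0.309) and −0.17 (SE 0.319), and their groups overlapped. PCDHB12, at 0.18 (SE 0.268), overlapped as well, and PCDHB16, at −0.33 (SE 0.247), had both KO values, 2.93 and 3.17 CPM, below both WT values, 3.84 and 3.88 CPM.

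The gamma cluster held the widest range, from 1.78 CPM at PCDHGA3 to 21.3 CPM at PCDHGC4 in WT. In gene order, the cluster opened with PCDHGA1 (5.67 ± 0.500 CPM in WT), which lay above the promoters that follow it, and then remained between 1.78 and 4.51 CPM from PCDHGA2 to PCDHGA10. It was higher at PCDHGB7 (6.67 ± 0.910 CPM) and PCDHGA11 (8.14 ± 0.236 CPM), and low at PCDHGA12 (3.07 ± 0.822 CPM). It ended with the C-type promoters PCDHGC3 (8.83 ± 1.77 CPM), PCDHGC4 (21.3 ± 1.15 CPM) and PCDHGC5 (4.90 ± 1.14 CPM). The same 5 promoters, PCDHGA1, PCDHGB7, PCDHGA11, PCDHGC3 and PCDHGC4, were the top 5 of the cluster in each of the 4 libraries.

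PCDHGC4 (Gene ID 56098), a C-type gene required for neuronal survival, was the highest of all 53 members in every library. It measured 22.1 and 20.5 CPM in WT replicates 1 and 2, and 23.4 and 26.4 CPM in KO replicates 1 and 2. Its log2 fold change was 0.24 (SE 0.100), and it held from 19.8% to 21.8% of gamma fragments in the 4 libraries. The WT and KO values did not overlap, but the gap between them was smaller than that between the KO libraries.

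PCDHGC3, which is also expressed outside neurons, measured 7.58 and 10.1 CPM in WT, and 10.5 and 11.6 CPM in KO (log2 fold change 0.34, SE 0.153). PCDHGC5, the last gene of the cluster, measured 5.71 and 4.10 CPM in WT, and 4.13 and 3.99 CPM in KO (log2 fold change −0.28, SE 0.220). The groups were separate at PCDHGC3 and overlapped at PCDHGC5. The lowest log2 fold changes of the cluster were those of PCDHGB4 and PCDHGA12. PCDHGB4 measured 3.43 and 2.66 CPM in WT, and 2.11 and 1.93 CPM in KO (log2 fold change −0.60, SE 0.286). The log2 fold change of PCDHGA12 was −0.44 (SE 0.280). At both, the KO values lay below the WT values. The lowest gamma promoters in WT, PCDHGA3 and PCDHGB6, had log2 fold changes of 0.30 (SE 0.322) and 0.21 (SE 0.309).

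PCDHGA1 (Gene ID 56114), the first gene of the gamma cluster, was the only member called different between KO and WT. It held 58 and 48 fragments in WT replicates 1 and 2, and 104 and 166 fragments in KO replicates 1 and 2. Scaled, this was 6.02 and 5.32 CPM in WT, and 9.54 and 9.73 CPM in KO. The KO libraries lay close together and well above both WT libraries. The log2 fold change was 0.76 (SE 0.177), a 1.70-fold higher level in KO, with an adjusted p of 0.00252 in the quasi-likelihood test of edgeR. The call was lost without WT replicate 2 (adjusted p 0.0839), without KO replicate 2 (adjusted p 0.115) and with the Wald test of DESeq2 (adjusted p 0.589), while the log2 fold change stayed between 0.68 and 0.90 in every alternative run.

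PCDHGA11 had the second highest log2 fold change of the cluster, but it rested on KO replicate 2. It measured 8.31 and 7.97 CPM in WT, and 8.53 and 12.4 CPM in KO replicates 1 and 2. The log2 fold change was 0.40 (SE 0.157) with all libraries, 0.072 without KO replicate 2, and 0.62 without KO replicate 1, the only case in which PCDHGA11 was called. The flanking promoters differed from it: PCDHGB7 had a log2 fold change of 0.098 (SE 0.182) and PCDHGA12 that given above.

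**Figure D2:**
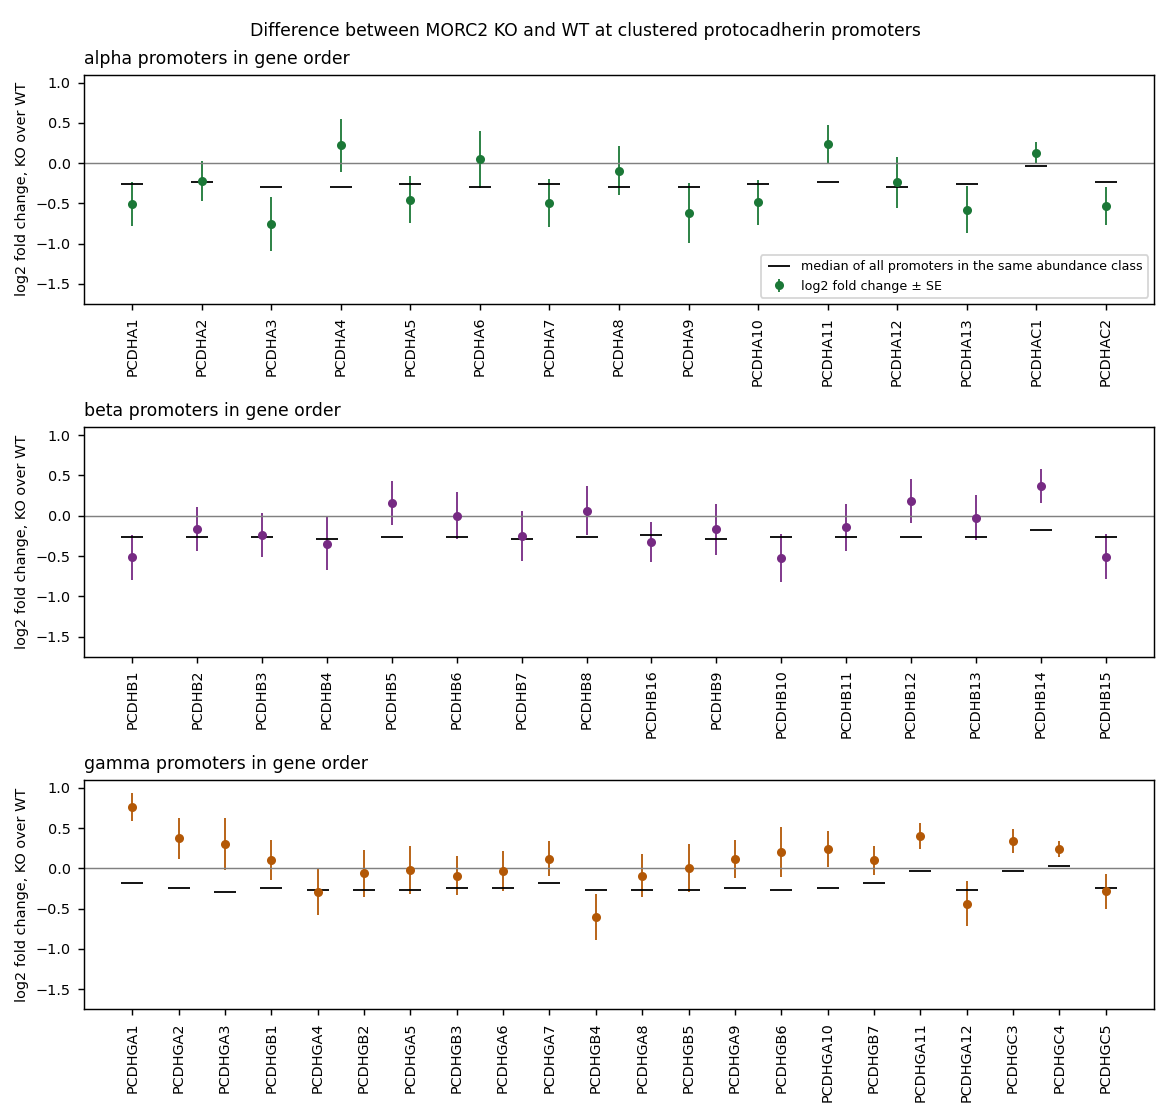
Log2 fold change of KO over WT (points, with bars of 1 SE) at each clustered protocadherin promoter in gene order, with the median of all promoters of the same abundance class as a black dash. Most alpha points lie below 0, gamma points lie on both sides with PCDHGA1 highest at 0.76, and most gamma points lie above their dash.

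Across the family, 1 of 53 members (1.89%) was called higher in KO and 0 were called lower by edgeR's quasi-likelihood test at an adjusted p of 0.05 over all promoters. Over all 27647 promoters tested, 3.45% were called higher and 0.995% lower. Most members belong to the 4 least abundant of 10 abundance classes, which are described below. Of the 2764 or 2765 promoters in each of these classes, 0 to 4 were called higher and 34 to 55 lower. Without adjustment, 8 members had a p under 0.05 by edgeR, 4 higher (PCDHGA1, PCDHGA11, PCDHGC3 and PCDHGC4) and 4 lower (PCDHA3, PCDHA13, PCDHAC2 and PCDHGB4), and 1 by DESeq2. Each direction thus held 7.55% of the members, against 11.5% higher and 8.87% lower over all promoters tested. All 53 members passed the filter on low counts. An exact permutation test of 2 against 2 libraries cannot give a two-sided p below 0.333, so that the summed levels of the clusters, given below, were not tested.

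The KO values were both above the 2 WT values at 13 of 53 members (24.5%), against 25.2% of all tested promoters, and below both at 15 (28.3%), against 25.4%. Among the 15 alpha promoters 3 lay above and 8 below, among the 16 beta promoters 1 above and 5 below, and among the 22 gamma promoters 9 above and 2 below. The shares in the whole family were thus near those of all promoters. The difference between the clusters was not tested, since promoters of a cluster are not replicates.

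Over the alpha promoters the log2 fold changes had a median of −0.45, with 4 above 0 and 11 below. It was −0.17 over the beta promoters, with 5 above 0 and 11 below, and turned to 0.11 when the scaling followed abundance (loess offsets). It was 0.10 over the gamma promoters, with 12 above 0 and 10 below. Over all promoters tested it was −0.017, and the median SE of a member was 0.278. The alpha and gamma medians kept their sign under each scaling run, but not their size: with loess offsets they were −0.17 and 0.27, and with total count scaling, which shifts all promoters up, −0.31 and 0.24. Without WT replicate 1 the alpha median was −0.26, and without KO replicate 1 it was also −0.26. The beta median was −0.050 without WT replicate 2. The gamma median was 0.061 without WT replicate 1, 0.051 without KO replicate 2 and 0.16 without KO replicate 1.

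The log2 fold change depended on abundance over the whole table, and the members were at the low end. When tested promoters were divided into 10 classes of equal size by mean abundance, the median log2 fold change ranged from −0.29 in the lowest class to 0.083 in the highest. The lowest class held 10 members, the next 24 and the third 11, while 4, 3 and 1 were in the fourth to sixth. Set against the median of its own class, the median member was 0.18 higher, with 36 of 53 members above. By cluster it was −0.19 for alpha (7 of 15 above), 0.11 for beta (11 of 16 above) and 0.27 for gamma (18 of 22 above). The order alpha, beta, gamma was thus kept, while the position of the family relative to 0 depended on the reference. Depth and mitochondrial share differed between the libraries as given above, and their part in the dependence on abundance was not tested.

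**Figure D3:**
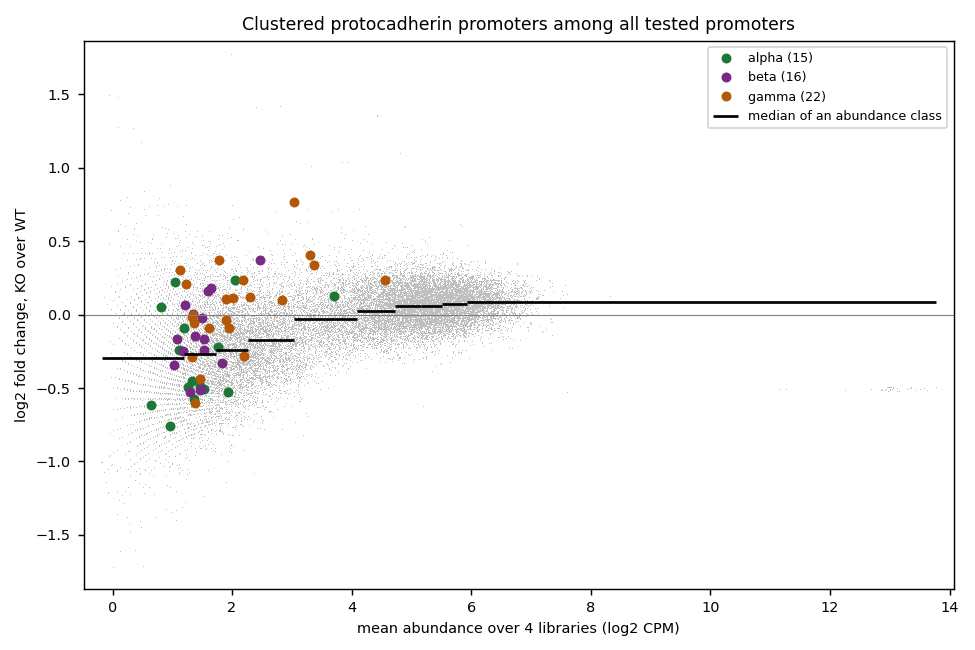
Log2 fold change of KO over WT against mean abundance (log2 CPM) for all 27647 tested promoters (grey points), with clustered protocadherin promoters in colour and the median of each of 10 abundance classes as black lines. The members lie mostly in the lowest classes, where the class median is below 0. Points beyond a log2 CPM of 10 are mitochondrial rows.

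Summed over each cluster, the level followed the same order. The alpha promoters together measured 52.4 and 48.3 CPM in WT replicates 1 and 2, and 43.7 and 44.5 CPM in KO replicates 1 and 2, a ratio of KO to WT of 0.875. The beta promoters measured 43.0 and 47.3 CPM in WT, and 41.5 and 41.6 CPM in KO, a ratio of 0.920. The gamma promoters measured 104.3 and 103.6 CPM in WT, and 110.1 and 121.1 CPM in KO, a ratio of 1.11. With TMM scaling the groups did not overlap in any cluster, the KO libraries lying lower for alpha and beta and higher for gamma. With scaling by total count the alpha and beta groups overlapped, and the beta ratio was 1.01. Over the whole family the sums were 199.7 and 199.1 CPM in WT and 195.2 and 207.2 CPM in KO, which overlapped.

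WT accessibility was also set beside base composition, which the selection did not use. The GC content of the 4 matched C-type promoters ranged from 59.0% to 66.0%, and that of the 43 other matched members from 32.3% to 51.3%, with a median of 38.7%. The median over all promoters was 61.3%. The matched C-type promoters also had the higher median WT level, 10.5 CPM against 2.80 CPM for the others. With the unmatched PCDHGC5 (4.90 CPM) included, the median of the C-type promoters was 8.83 CPM. High GC content was not shared by every member that ranked high within its cluster: PCDHGA1 had 36.3%, PCDHB14 35.7% and PCDHGA11 44.3%. Conversely, PCDHAC2 had 63.0% and a WT level of 4.43 CPM. All points come from the same 2 WT libraries.

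**Figure D4:**
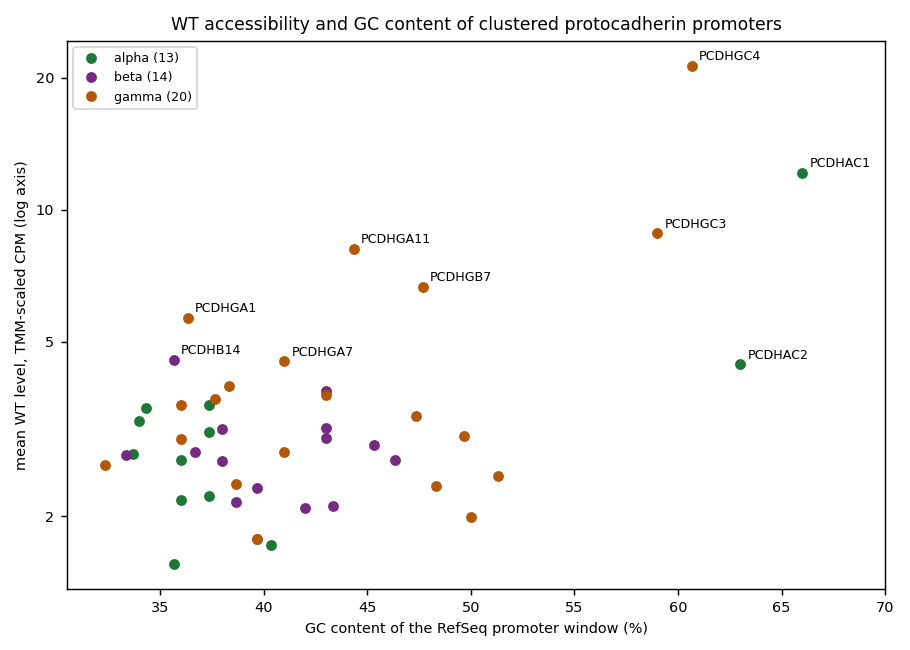
Mean WT level (TMM-scaled CPM, log axis) against GC content of the RefSeq promoter window for the 47 matched clustered protocadherin promoters, coloured by cluster. The 4 C-type promoters lie to the right, from 59.0% to 66.0% GC, and PCDHGA1, PCDHGA11, PCDHGB7 and PCDHB14 reach comparatively high levels at lower GC content.

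Between the first and last member in gene order lay 8 other rows. None of them was called by edgeR or DESeq2, and none had an unadjusted p under 0.05. TAF7, a gene of the general transcription factor TFIID that sits between the beta and gamma clusters, was the most accessible at 19.5 ± 2.25 CPM in WT and 20.2 ± 0.356 CPM in KO (log2 fold change 0.057, SE 0.107). The second, the pseudogene PCDHGB8P, measured 3.33 ± 0.303 CPM in WT and 2.41 ± 0.093 CPM in KO (log2 fold change −0.47, SE 0.270). The 7 rows other than TAF7 ranged from 2.23 to 3.33 CPM in WT, within the range of the poorly accessible members, and from −0.58 to −0.11 in log2 fold change. The 5 rows on either side of the family were likewise not called by edgeR or DESeq2, with none at an unadjusted p under 0.05. Their WT levels ranged from 4.88 to 57.3 CPM and their log2 fold changes from −0.17 to 0.15, with 9 of 10 above 0.

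Adjacent rows can hold the same fragments where windows overlap. Fragments of low mapping quality were removed before counting, and how many of them came from related members was not tested. The closest adjacent members were PCDHB2 and PCDHB3, whose counts differed by at most 9.68% in any library. The positions of the windows on the assembly used for alignment were not used here, and whether these windows overlap was not tested.

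The non-clustered protocadherins, related adhesion genes spread over other loci, were described beside them. Of 12 promoters, 5 were called higher in KO (PCDH7, PCDH9, PCDH10, PCDH17 and PCDH20) and 0 lower, with a median log2 fold change of 0.21. The share called higher was 3.45% over all promoters, as given above, and from 4.38% to 11.5% in the 4 most abundant classes, to which 9 of the 12 belong. The difference from the clustered members was not tested. These calls depended on the setting. They numbered 0 with total count scaling or DESeq2, 1 with loess offsets and 3 with a replicate block, and 0 to 6 were made when a library was left out, with 0 without WT replicate 2, 1 without KO replicate 2 and 3 without KO replicate 1. The highest fold change was that of PCDH20 at 0.35 (SE 0.076), from 39.9 and 36.1 CPM in WT to 51.6 and 46.0 CPM in KO. The median WT level of the 12 was 32.3 CPM, well above that of the clustered members (2.98 CPM), and calls of higher accessibility were concentrated in the abundant classes, with 317 in the highest and 0 in the lowest.

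Among 17 promoters of architecture and silencing factors known to act on the clustered protocadherins, such as CTCF, the cohesin subunit RAD21 and SMCHD1, none was called by edgeR or DESeq2, 3 had an unadjusted p under 0.05 in edgeR and 1 in DESeq2, and their log2 fold changes had a median of 0.046. Without WT replicate 1, 1 of them was called by edgeR. Among 11 promoters of known partners of the clustered protocadherin proteins, 1 was called, RET, a receptor tyrosine kinase. It measured 28.2 ± 1.67 CPM in WT and 34.4 ± 0.448 CPM in KO (log2 fold change 0.28, SE 0.088). RET was not called with total count scaling, loess offsets, DESeq2 or a replicate block, nor without WT replicate 2 or either KO library. The median of that list was 0.069. The promoter of MORC2 itself measured 27.6 ± 2.77 CPM in WT and 37.2 ± 0.359 CPM in KO. It was called higher in KO by edgeR (log2 fold change 0.43, SE 0.087, adjusted p 0.000279). This difference does not measure the edit. None of the HEK293T markers or of the markers of other cell types was called by edgeR or DESeq2, and VIM was the only one with an unadjusted p under 0.05 in edgeR.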

How the data were processed

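ATAC-seq libraries of 2 WT and 2 MORC2 KO HEK293T samples were analysed. The authors trimmed the reads, aligned them with bowtie2 to the telomere-to-telomere assembly CHM13, kept properly paired reads of high mapping quality and discarded duplicates. In the table deposited by the authors, values are fragment counts per promoter without normalisation, with 1 row per NCBI Gene ID. How the windows of this table were counted is not given in the sources used here. The peak list, on CHM13 positions, was not used here. Tn5 offsets were not applied.

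Symbols and gene order came from RefSeq (GRCh38.p14), which named 28763 of 28775 rows, and promoter sequences from the same build. A symbol of the family without a row, the pseudogene PCDHA14, could not be described. Rows were filtered with filterByExpr, which kept 27647, scaled by TMM and tested in edgeR 4.0.16 under R 4.3.3 by quasi-likelihood F-tests (legacy fit, no covariates, all 4 libraries), with two-sided p-values adjusted by Benjamini-Hochberg over all rows tested. A promoter was called at an adjusted p under 0.05. Alternatives were DESeq2 1.42.0 (size factors, Wald test), scaling by total count, loess offsets (limma 3.58.1), no filter, no mitochondrial rows, a replicate block and leaving out each library. The code was tested on simulated data.

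Members described singly are, in each cluster, the C-type genes, the 3 highest and 2 lowest WT levels, the 2 highest and 2 lowest log2 fold changes, and any called. Of the rows between members, the 2 highest in WT were named. Members and lists were chosen with earlier results of these data known. With 12 to 451 fragments per member and library, small differences were not detectable.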

Additional observations from a re-analysis of the deposited data

How the results depend on the processing

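The sign of the alpha and gamma medians was kept in every alternative run, and that of beta was not. Total count scaling shifted the median log2 fold change of all tested promoters from −0.017 to 0.12. With it the medians were −0.31 for alpha, −0.026 for beta, 0.24 for gamma and 0.054 for the family, or −0.43, −0.15, 0.12 and −0.066 relative to the shifted median of all promoters. The summed KO to WT ratios were then 0.959 for alpha, 1.01 for beta and 1.22 for gamma. With loess offsets, which remove the dependence on abundance by construction, the medians were −0.17, 0.11, 0.27 and 0.17. The alpha median ranged from −0.42 to −0.26 when a library was left out.

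Members called numbered 0 with the DESeq2 Wald test, with or without its independent filter (the latter chosen after seeing the data), where 1 had an unadjusted p under 0.05. They ranged from 0 to 2 when a library was left out: 0 without WT replicate 2 or KO replicate 2, 1 without WT replicate 1, and 2 (PCDHGA1 and PCDHGA11) without KO replicate 1. The cause was not tested. Over all promoters, calls numbered 1229 in the main edgeR run, a count made here and not taken from the paper. The paper tested windows across the genome and then summarised them by promoter, so its count is a different measure. The calls made here fell to 388 under loess offsets, 20 when libraries were scaled by total count, and 7 in the DESeq2 Wald test. With a replicate block there were 765, with PCDHGA1 still called (log2 fold change 0.77, adjusted p 0.00185 in edgeR). The replicate numbers did not pair the libraries: the differences between replicates 1 and 2 in WT and KO correlated at 0.000297 over 27647 promoters. Of the 23 members described singly, PCDHB9 changed sign with loess offsets, PCDHB8 without KO replicate 1, and PCDHA6, PCDHB8 and PCDHB12 without WT replicate 1.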
